A study of Mus musculus with 20 samples.

Results

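Type I and type II interferons switch on a broad set of antiviral genes in nearly every cell type of the liver, and 9 of these genes were followed here across 20 mouse livers that differed in hepatocyte *Cideb* and in diet. They were *Ifit1*, *Ifit2*, *Ifit3*, *Isg15*, *Irf7*, *Rsad2*, *Usp18*, *Oasl2* and *Gbp2*, chosen by symbol among the 50559 genes counted. All 9 stood higher on the choline-deficient diet than on Western diet, whether or not hepatocytes carried *Cideb*, where 25.9% of all genes tested rose with *Cideb* present and 9.19% with it removed. With *Cideb* removed on the choline-deficient diet, *Usp18* and *Irf7* stood higher still, among 8.19% of all genes tested that did. *Usp18* passed in all 10 fits that left out 1 liver, but *Irf7*, close to the threshold, in only 3. Between KO and WT livers on Western diet 0 of the 9 passed the test, where 0.0757% of all genes did.

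Interferons bind the IFNAR or IFNGR receptors, which act through JAK kinases to activate STAT transcription factors. The complex with STAT2 and IRF9 that forms after type I interferon binds the interferon-stimulated response element in promoters, and factors activated by interferon gamma bind the gamma-activated site. The products of the induced genes block translation or replication of viruses, and some of them feed back on the pathway: IRF7 drives further production of type I interferon, and USP18 shuts the receptor down.

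All mice had a C57BL/6 background and were homozygous for the floxed allele (Cideb fl/fl), in which loxP sites flank exon 2. In the main feeding experiments AAV was injected at 6 weeks of age, though the labels give no age for the sequenced mice. WT livers came from mice given AAV-TBG-GFP and KO livers from mice given AAV-TBG-Cre, so each mouse received a virus, and the TBG promoter restricted Cre to hepatocytes while other liver cells kept *Cideb*. The mice were then fed Western diet (WD) or a high fat diet made of amino acids and lacking choline (CDA-HFD), with 5 livers in each of the 4 groups. The labels give 3 months for either diet, whereas the study's text gives unequal feeding times for the diets, so diet, feeding time and any separate processing of the diets cannot be told apart. RNA of whole liver was sequenced, and because a whole organ was read, fewer cells of a type and less RNA per cell cannot be told apart. The labels do not tie the livers to litters or cages.

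The libraries held 11697049 to 16827147 reads assigned to genes. Levels are given as CPM, the read count scaled to the adjusted total of its library. The deleted gene *Cideb* had 6.06 ± 1.12 CPM (SD, n = 5) in WT livers against 0.155 ± 0.165 CPM (SD, n = 5) with Cre on WD (log2 difference -5.12, edgeR, adjusted p = 0.000766). On CDA-HFD it had 3.05 ± 0.653 CPM against 0.163 ± 0.154 CPM (SD, n = 5 each, log2 difference -4.19, edgeR, adjusted p = 0.00268). Of its 1488 exonic bases 1136 are shared with *Nop9* on the opposite strand, which makes its level uncertain. The 8 hepatocyte markers summed to between 30258 and 96177 CPM in every liver, and each was detected in all 4 groups. On CDA-HFD, liver 5 of the WT group was the highest WT liver for all members but *Gbp2*. Liver 5 of the KO group was the lowest KO liver for *Ifit1*, *Rsad2* and *Usp18*, and lay at an end of its group for several marker sums. The calls between WT and KO livers on that diet are given with and without these livers.

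The interferon-stimulated response element was searched as GAAA, any 2 bases, GAAA, and the gamma-activated site as TTCNNNGAA, on both strands of the 300 bases from 250 before to 50 after each gene's start in RefSeq (GRCm38.p6). Windows were given for 8 of the 9 genes, all but *Usp18*. The response element was present in 5 of these 8, *Ifit1*, *Ifit3*, *Isg15*, *Rsad2* and *Gbp2*, against 3.99% of the 27025 genes with a window and 36 of 70 other interferon-induced genes of the lists used further on. The gamma-activated site was present in 1 of the 8, *Ifit2*, against 9.55% of all genes, and no window of a member held both motifs. *Irf7* and *Oasl2* held neither set of letters in this window. The 4 windows printed here differ in how the element is laid out and are written from the gene's own strand with the matched letters in capitals. *Isg15* (chr4:156200769-156201068, minus strand) has 3 overlapping matches on the gene's strand, the nearest ending 56 bases before the start. *Ifit1* (chr19:34640639-34640938, plus strand) has 2 separate matches on the opposite strand, 75 and 94 bases before the start. *Ifit3* (chr19:34583279-34583578, plus strand) has 2 on the opposite strand, 112 and 146 bases before the start. *Gbp2* (chr3:142620413-142620712, plus strand) has 1 on the opposite strand, 49 bases before the start.
Isg15: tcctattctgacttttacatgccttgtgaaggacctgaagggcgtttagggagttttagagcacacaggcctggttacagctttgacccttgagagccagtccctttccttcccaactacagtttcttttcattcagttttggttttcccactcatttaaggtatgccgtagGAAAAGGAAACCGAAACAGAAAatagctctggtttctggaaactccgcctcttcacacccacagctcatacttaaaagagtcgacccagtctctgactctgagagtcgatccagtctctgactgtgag
Ifit1: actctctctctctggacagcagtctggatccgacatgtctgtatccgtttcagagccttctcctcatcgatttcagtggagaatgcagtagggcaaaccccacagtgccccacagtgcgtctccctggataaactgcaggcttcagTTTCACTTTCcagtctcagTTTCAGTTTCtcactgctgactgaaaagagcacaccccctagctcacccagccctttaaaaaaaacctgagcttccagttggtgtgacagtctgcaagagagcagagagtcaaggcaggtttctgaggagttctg
Ifit3: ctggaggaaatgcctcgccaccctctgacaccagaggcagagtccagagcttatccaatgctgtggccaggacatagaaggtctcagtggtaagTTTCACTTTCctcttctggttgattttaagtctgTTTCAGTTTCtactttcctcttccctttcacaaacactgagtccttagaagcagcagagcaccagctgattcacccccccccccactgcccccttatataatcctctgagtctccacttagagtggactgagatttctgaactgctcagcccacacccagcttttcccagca
Gbp2: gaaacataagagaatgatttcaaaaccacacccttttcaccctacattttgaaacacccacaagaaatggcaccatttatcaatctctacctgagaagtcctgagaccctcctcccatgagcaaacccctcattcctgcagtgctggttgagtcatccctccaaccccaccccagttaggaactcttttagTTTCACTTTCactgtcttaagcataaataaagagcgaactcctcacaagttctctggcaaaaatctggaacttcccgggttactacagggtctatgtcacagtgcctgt

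The 3 *Ifit* genes lie in 1 cluster on the plus strand of chromosome 19 in GRCm38, *Ifit2* (ENSMUSG00000045932.12) from 34550694 to 34576419, *Ifit3* (ENSMUSG00000074896.3) from 34583531 to 34588731 and *Ifit1* (ENSMUSG00000034459.8) from 34640871 to 34650009. *Isg15* (ENSMUSG00000035692.6) spans 156199424 to 156200818 on the minus strand of chromosome 4, and *Irf7* (ENSMUSG00000025498.15) 141262706 to 141266481 on the minus strand of chromosome 7. *Rsad2* (ENSMUSG00000020641.16) spans 26442746 to 26456452 on the minus strand of chromosome 12, and *Usp18* (ENSMUSG00000030107.10) 121245906 to 121270917 on the plus strand of chromosome 6. *Oasl2* (ENSMUSG00000029561.17) spans 114896936 to 114912234 on the plus strand of chromosome 5, and *Gbp2* (ENSMUSG00000028270.12) 142620602 to 142638008 on the plus strand of chromosome 3. All 9 are protein-coding. Of the 75-base windows in the longest coding transcript, 41.1% of those of *Ifit3* also occur in *Ifit3b*, 5.19% of those of *Ifit1* in *Ifit1bl2* and 0.983% of those of *Gbp2* in *Gbp2b*, while the other 6 genes share none with another gene. The *Ifit3* level is therefore uncertain, since reads that aligned to more than 1 place were tallied apart from the genes. Exon bases shared with a gene on the opposite strand made up 4.44% of *Usp18*, 1.19% of *Irf7* and 0.954% of *Gbp2*, and it is not known whether counting used the strand.

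The IFIT proteins are cytoplasmic sensors and effectors, and IFIT1 binds viral RNA that lacks the cap methylation of host mRNA. On WD, *Ifit1* was at 8.70, 6.71, 6.58, 10.3 and 5.84 CPM in WT livers 1 to 5 and at 4.69, 7.23, 7.64, 11.8 and 6.11 CPM in KO livers 1 to 5. On CDA-HFD the values were 15.9, 19.4, 23.3, 17.1 and 54.4 CPM in WT livers and 56.1, 67.0, 40.9, 175 and 18.9 CPM in KO livers. All 10 livers on CDA-HFD were above all 10 on WD, and within CDA-HFD liver 5 of either genotype sat at the opposite end from its group: highest of the WT livers, lowest of the KO livers. The remaining 4 KO livers were above the remaining 4 WT livers.

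*Ifit2*, whose product pairs with other IFIT proteins, was at 18.7, 15.5, 7.72, 10.2 and 7.81 CPM in WT livers and 12.9, 8.71, 11.8, 10.7 and 8.61 CPM in KO livers on WD. With CDA-HFD its values were 35.97, 24.6, 33.3, 29.7 and 49.2 CPM in WT livers and 36.2, 38.9, 29.2, 45.5 and 44.2 CPM in KO livers. The WT and KO ranges covered each other on either diet, and WT liver 1 was the highest of the WD livers. *Ifit3*, another partner of this family, was at 15.5, 14.0, 7.72, 12.0 and 9.85 CPM in WT livers and 8.19, 7.62, 9.88, 12.2 and 9.55 CPM in KO livers on WD. With CDA-HFD it was at 34.3, 23.3, 28.9, 20.6 and 52.1 CPM in WT livers and 56.9, 59.3, 37.4, 99.9 and 42.0 CPM in KO livers. Only WT liver 5 of the WT livers reached the KO range, and KO liver 4 was highest, as for *Ifit1*.

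*Isg15* encodes a ubiquitin-like modifier that is joined to newly made proteins during the response. It was the lowest of the members in CPM on WD, at 5.33, 3.78, 2.95, 3.67 and 3.28 CPM in WT livers and 3.04, 2.88, 4.38, 3.49 and 2.43 CPM in KO livers. On CDA-HFD the values were 11.3, 9.87, 9.39, 7.25 and 22.7 CPM in WT livers and 20.8, 19.9, 14.0, 29.2 and 14.2 CPM in KO livers. WT liver 5 alone overlapped the KO livers.

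*Usp18* encodes the protease that removes ISG15 from proteins and also blocks the type I receptor. On WD it was at 19.5, 20.98, 9.84, 14.9 and 11.02 CPM in WT livers and 12.4, 9.33, 14.0, 12.5 and 11.1 CPM in KO livers. On CDA-HFD it was at 24.1, 29.0, 29.0, 29.7 and 40.8 CPM in WT livers and 72.1, 56.9, 51.2, 70.8 and 47.7 CPM in KO livers. Here alone among the 9 genes, each KO liver on CDA-HFD exceeded each WT liver, liver 5 included.

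*Rsad2* encodes viperin, an enzyme of the endoplasmic reticulum and of lipid droplets that makes a chain-terminating nucleotide. On WD it was at 15.4, 11.1, 10.7, 10.8 and 10.9 CPM in WT livers and 10.5, 10.3, 10.997, 17.3 and 13.1 CPM in KO livers. On CDA-HFD it was at 19.95, 19.2, 19.6, 16.0 and 47.5 CPM in WT livers and 42.1, 42.4, 38.6, 66.5 and 23.8 CPM in KO livers. Liver 5 of each genotype again fell in the range of the other genotype. *Oasl2*, of the oligoadenylate synthetase family that senses double-stranded RNA, was at 15.9, 16.4, 7.79, 10.9 and 11.02 CPM in WT livers and 9.38, 7.70, 10.2, 10.7 and 9.63 CPM in KO livers on WD. With CDA-HFD its values were 53.4, 31.4, 42.3, 32.8 and 65.2 CPM in WT livers and 45.9, 41.2, 27.6, 61.1 and 58.3 CPM in KO livers, with the genotypes interleaved.

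*Irf7* encodes the transcription factor that amplifies interferon production. It had the highest CPM of the members on WD, at 46.3, 37.7, 29.7, 38.6 and 42.4 CPM in WT livers and 33.8, 32.6, 27.96, 34.3 and 32.6 CPM in KO livers. On CDA-HFD it was at 74.7, 65.1, 59.6, 66.9 and 101 CPM in WT livers and 118, 122, 78.9, 164 and 95.9 CPM in KO livers. All KO livers on CDA-HFD exceeded 4 of the 5 WT livers.

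*Gbp2* encodes a guanylate-binding GTPase that attacks membranes around intracellular pathogens and responds strongly to interferon gamma. On WD it was at 29.7, 18.6, 11.05, 14.4 and 12.2 CPM in WT livers and 12.6, 10.6, 12.9, 8.51 and 9.40 CPM in KO livers. On CDA-HFD it was at 40.3, 29.7, 37.8, 30.7 and 31.2 CPM in WT livers and 18.6, 28.7, 20.3, 27.3 and 36.3 CPM in KO livers. Its KO values lay mostly below its WT values on either diet, and KO liver 5 was the highest KO liver on CDA-HFD, where that liver was the lowest for *Ifit1*, *Rsad2* and *Usp18*.

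**Figure D1:**
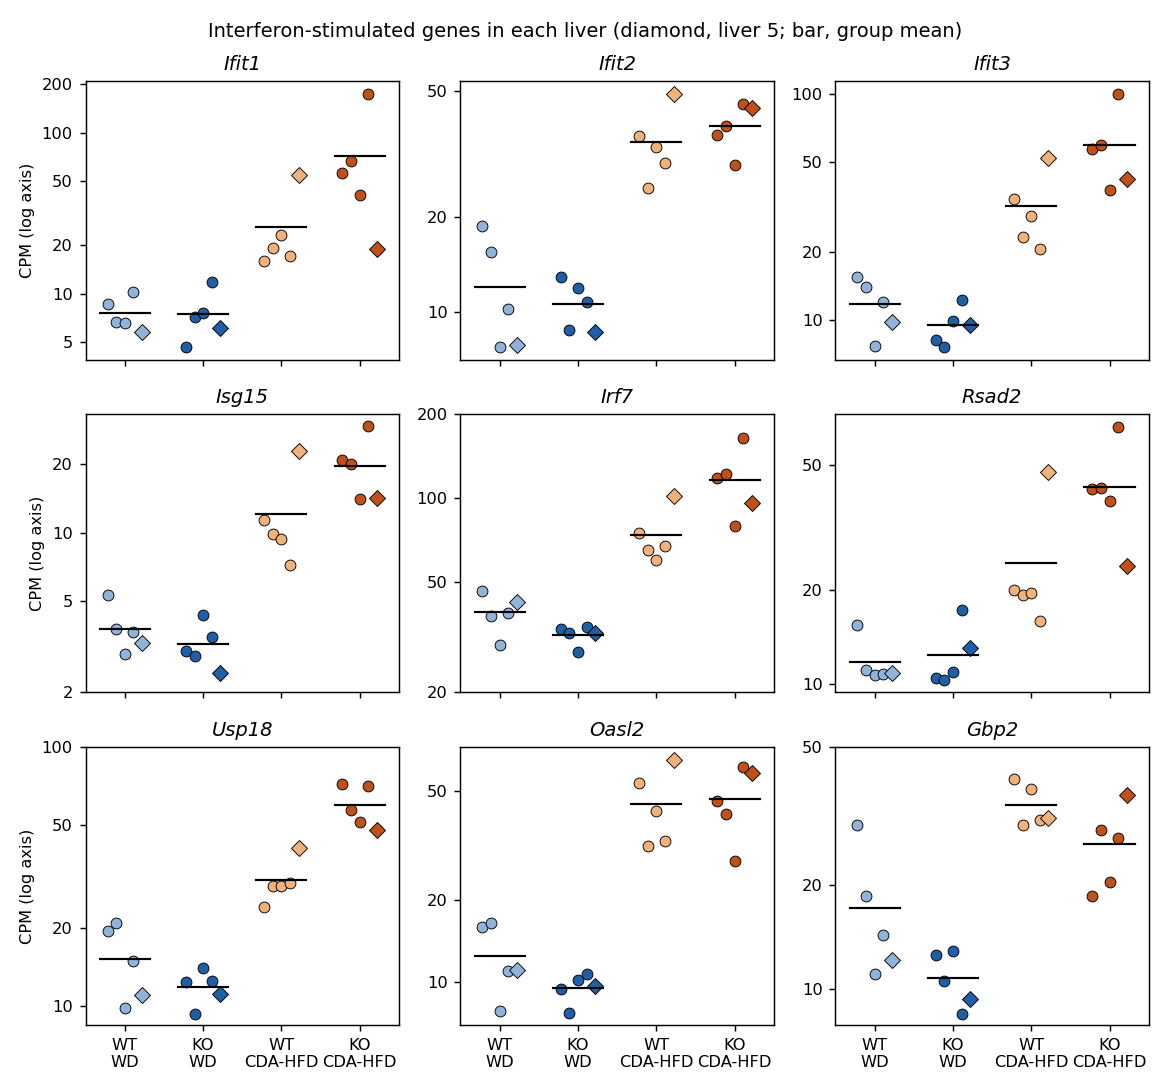
CPM of the 9 interferon-stimulated genes in each liver, on a log axis with its own range in each panel, for WT and KO livers on WD and CDA-HFD. Points are livers, diamonds mark liver 5 of each group and bars are group means. Within each genotype the CDA-HFD livers lie above the WD livers for every gene except that for *Gbp2* in WT livers the ranges touch, and *Usp18* separates all KO from all WT livers on CDA-HFD.

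Levels of different genes were compared per kilobase, and their order depended on the length used, either all exons merged or the longest coding transcript, the latter added after seeing the data. *Irf7* led in WT livers on WD by either length, with 10.3 ± 1.64 CPM per kb (SD, n = 5) of merged exon and 17.4 ± 2.77 CPM per kb (SD, n = 5) of transcript. *Oasl2* was last there per merged exon, with 1.95 ± 0.575 CPM per kb (SD, n = 5), but 6th of the 9 per transcript, with 3.97 ± 1.17 CPM per kb (SD, n = 5), where *Ifit1* was last with 2.87 ± 0.692 CPM per kb (SD, n = 5). In KO livers on CDA-HFD, *Ifit3* was first per merged exon, with 33.9 ± 14.1 CPM per kb (SD, n = 5) beside 30.6 ± 8.47 CPM per kb (SD, n = 5) for *Irf7*. Per transcript *Irf7* was first there, with 51.7 ± 14.3 CPM per kb (SD, n = 5), ahead of *Ifit3* and of *Usp18* with 33.7 ± 6.32 CPM per kb (SD, n = 5). From WT livers on WD to KO livers on CDA-HFD, *Ifit1* went from 7th to 3rd by merged exon and from 9th to 4th by transcript, and *Gbp2* from 2nd to 6th and from 3rd to 8th.

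The comparison of KO with WT livers on WD asks what loss of hepatocyte *Cideb* did to these genes under a milder diet. No member passed the threshold of an adjusted p under 0.05. Levels of 8 of the 9 were lower on average in KO livers and that of *Rsad2* was higher, with log2 fold changes from -0.67 for *Gbp2* to 0.08 for *Rsad2* and a median of -0.27, against 0.01 over all 15848 genes tested. The smallest adjusted p was 0.377 for *Gbp2* (17.2 ± 7.57 CPM with GFP and 10.8 ± 1.92 CPM with Cre, SD, n = 5 each), and it was 0.429 for *Irf7*, with a log2 fold change of -0.27 (edgeR). Those 2 genes had an unadjusted p under 0.05 in edgeR, and DESeq2 called 0 of the 9 as well. In the same fit 0.0757% of all genes tested passed in either direction. The 95% intervals of the log2 fold change reached from -0.54 to 0.51 for *Ifit1* and from -0.81 to 0.09 for *Usp18*, so differences within these limits were not excluded. The WT and KO livers overlapped for all 9 genes, and the directions of *Ifit1*, *Ifit2* and *Rsad2* turned when single livers were left out.

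On CDA-HFD, *Usp18* and *Irf7* rose in KO livers. *Usp18* went from 30.5 ± 6.14 CPM in WT to 59.7 ± 11.2 CPM in KO livers (SD, n = 5 each), a 1.95-fold difference (log2 fold change 0.96, standard error 0.16, edgeR, adjusted p = 0.00949). *Irf7* went from 73.5 ± 16.4 CPM to 115.7 ± 31.99 CPM (SD, n = 5 each), a 1.57-fold difference (log2 fold change 0.65, standard error 0.20, edgeR, adjusted p = 0.0482). With these, 2 of the 9 members passed upward and 0 downward, beside 8.19% of the 17204 genes tested that passed upward and 7.29% that passed downward. *Usp18* was the 1 member whose groups did not overlap, a separation upward found for 5.03% of the genes tested. Exact two-sided permutation tests over the livers gave p = 0.00794 for *Usp18*, the smallest p that 5 livers against 5 allow, and p = 0.0238 for *Irf7*.

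The other 7 members did not pass. *Ifit1* had the largest point estimate, 1.44 on the log2 scale (95% interval 0.25 to 2.63, edgeR, adjusted p = 0.0870), at 26.0 ± 16.1 CPM with GFP and 71.5 ± 60.4 CPM with Cre (SD, n = 5 each). *Ifit3* had a log2 fold change of 0.88 (edgeR, adjusted p = 0.0666), *Rsad2* of 0.79 (edgeR, adjusted p = 0.111) and *Isg15* of 0.68 (edgeR, adjusted p = 0.137). *Ifit2* was at 0.16 (95% interval -0.23 to 0.55) and *Oasl2* at 0.05 (95% interval -0.49 to 0.59), and both turned negative when only library size was used for scaling. *Gbp2* had a negative value, -0.38 (95% interval -0.75 to 0.00364, edgeR, adjusted p = 0.145). The median over the 9 was 0.68, against 0.00499 over all genes tested.

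Which members passed depended on single livers. Without KO liver 5 there were 6 calls, and *Ifit1*, *Ifit3* and *Rsad2* rose and *Gbp2* fell beside the 2 above. Calls over all genes went from 2664 to 7201 in the same step. Without WT liver 5 there were 5, as *Ifit3*, *Isg15* and *Rsad2* joined *Usp18* and *Irf7*. Without both of them, a choice made after seeing the data, 7 members passed: the log2 fold change was 2.15 for *Ifit1*, 1.33 for *Rsad2*, 1.23 for *Ifit3*, 1.16 for *Usp18*, 1.14 for *Isg15*, 0.85 for *Irf7* and -0.55 for *Gbp2*, with adjusted p from 0.000381 to 0.0206 in edgeR. *Ifit2* (0.27) and *Oasl2* (0.13) did not pass there either. In that fit 16.4% of the 17037 genes tested passed upward and 19.4% downward. The livers left out were the highest WT liver for all members but *Gbp2* and the lowest KO liver for *Ifit1*, *Rsad2* and *Usp18*. Leaving them out widens those differences by selection, so the added calls are not further evidence. *Irf7* lost its call without WT liver 1, 2, 3 or 4 and without KO liver 1, 2 or 4, which left *Usp18* as the 1 call. *Usp18* passed in all 10 such fits, with adjusted p from 0.000576 to 0.0341.

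Markers of other cells moved in the same comparison, in which 8.19% of all genes passed upward and 7.29% downward. The 18 macrophage markers summed to 2205 to 4426 CPM in WT livers and 833 to 2616 CPM in KO livers on CDA-HFD, with 9 of 18 lower and 0 higher in KO livers, and the 2616 CPM was KO liver 5. The 9 neutrophil markers summed to 37.1 to 97.5 CPM and 10.2 to 26.6 CPM, with 7 of the 8 tested lower and the highest KO sum again in liver 5. Plasmacytoid dendritic cell markers summed to 104 to 142 CPM and 87.2 to 123 CPM, with 1 of 6 lower and the highest KO sum in liver 5. In WT livers *Tcf4* (mean 83.8 CPM) and *Lair1* (28.7 CPM) made up most of that sum, and *Siglech* had 4.34 CPM. The sum therefore mostly follows those 2 genes and is no measure of the amount of these cells. T and NK cell markers summed to 15.5 to 24.6 CPM and 13.5 to 38.2 CPM, with 1 of 14 higher, and the 38.2 CPM was KO liver 5. No marker of the macrophage, neutrophil or plasmacytoid dendritic lists was at 0 throughout a group, and 1 of the 15 T and NK cell markers was. Endothelial markers summed to 657 to 750 CPM and 624 to 974 CPM, and stellate markers to 2112 to 3330 CPM and 1295 to 3500 CPM, with 0 of 9 and 0 of 8 passing, and KO liver 5 had the lowest endothelial and the highest stellate sum of its group. The 8 hepatocyte markers summed to 30258 to 66569 CPM and 32532 to 96177 CPM, with 2 higher in KO livers, and the 32532 CPM was KO liver 5, where the group median was 71989 CPM. Without liver 5 of both groups 13 of 18 macrophage, 8 of 8 neutrophil and 6 of 8 stellate markers were lower, and 4 of 8 hepatocyte and 5 of 9 endothelial markers were higher, while the counts for the other 2 marker lists were as before. In that fit 16.4% of all genes passed upward and 19.4% downward. The part of these markers in the member levels was not tested.

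**Figure D2:**
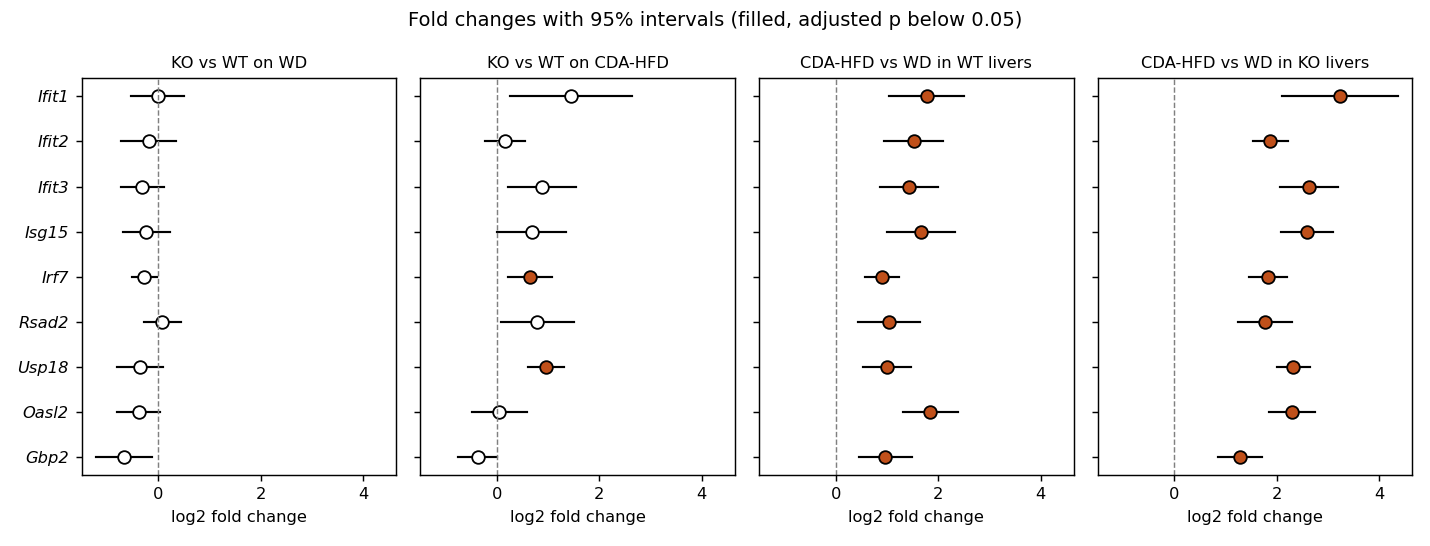
Log2 fold changes of the 9 genes in edgeR, with 95% intervals, for KO against WT livers on each diet and for CDA-HFD against WD in WT and in KO livers. Filled points passed an adjusted p under 0.05: none on WD, *Usp18* and *Irf7* on CDA-HFD, and all 9 in either diet comparison.

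The comparison of the diets asks how these genes differed between CDA-HFD and WD. In WT livers all 9 members rose on CDA-HFD. *Oasl2* went from 12.4 ± 3.67 CPM to 45.02 ± 14.3 CPM (SD, n = 5 each), a 3.61-fold difference (log2 fold change 1.85, edgeR, adjusted p = 0.000111). *Ifit1* rose 3.42-fold, *Isg15* 3.18-fold, *Ifit2* 2.87-fold and *Ifit3* 2.69-fold. *Rsad2* (2.07-fold), *Usp18* (1.997-fold), *Gbp2* (1.96-fold) and *Irf7* (1.88-fold) rose least, with adjusted p of at most 0.00786 in edgeR for the 9 genes. The median log2 fold change of the members was 1.43, and 25.9% of the 16726 genes tested passed upward and 25.2% downward. For 8 of the 9 all CDA-HFD livers were above all WD livers, against 19.3% of the genes tested, and *Gbp2* was the exception because WD liver 1 reached 29.7 CPM.

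In KO livers all 9 members rose as well. *Ifit1* went from 7.49 ± 2.65 CPM to 71.5 ± 60.4 CPM (SD, n = 5 each), a 9.41-fold difference (log2 fold change 3.23, standard error 0.52, edgeR, adjusted p = 0.00243), with KO liver 4 at 175 CPM. *Ifit3* rose 6.18-fold, *Isg15* 6.02-fold, *Usp18* 5.01-fold, *Oasl2* 4.90-fold, *Ifit2* 3.67-fold, *Irf7* 3.57-fold, *Rsad2* 3.40-fold and *Gbp2* 2.44-fold. *Usp18* had the smallest adjusted p, 8.22e-06 from edgeR. The median log2 fold change was 2.29, and 9.19% of the 16387 genes tested passed upward and 7.85% downward. No member overlapped between the diets in KO livers, against 8.09% of the genes tested that separated upward. The 9 calls of each diet comparison stood under all scalings, filters, tests and left-out livers tried.

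Marker sums also differed between the diets. Over all genes 25.9% passed upward and 25.2% downward in WT livers, and 9.19% and 7.85% in KO livers. Macrophage markers summed to 544 to 1688 CPM in WT livers on WD and 2205 to 4426 CPM on CDA-HFD, with 12 of 18 higher and 2 lower, and to 446 to 854 CPM and 833 to 2616 CPM in KO livers, with 8 of 18 higher. In WT livers *Gpnmb* (mean 17.9 CPM on WD and 763 CPM on CDA-HFD) and *Lyz2* (105 and 845 CPM) weighed most in that rise. T and NK cell markers summed to 5.40 to 15.7 CPM on WD and 15.5 to 24.6 CPM on CDA-HFD in WT livers, with 7 of 11 higher, and to 5.09 to 10.1 CPM and 13.5 to 38.2 CPM in KO livers, with 4 of 8 higher. Plasmacytoid dendritic cell markers summed to 73.2 to 101 CPM and 104 to 142 CPM in WT livers and to 71.0 to 84.7 CPM and 87.2 to 123 CPM in KO livers, with 4 higher in either. *Tcf4* was the largest term again (mean 65.1 CPM on WD and 83.8 CPM on CDA-HFD in WT livers). Stellate markers were higher for 7 of 8 in WT and 2 of 8 in KO livers, and neutrophil markers for 5 of 8 and 1 of 3. Hepatocyte markers were lower for 4 of 8 and endothelial markers for 6 of 9 in WT livers, and 0 of either passed in KO livers. Their part in the rise of the members was not tested.

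**Figure D3:**
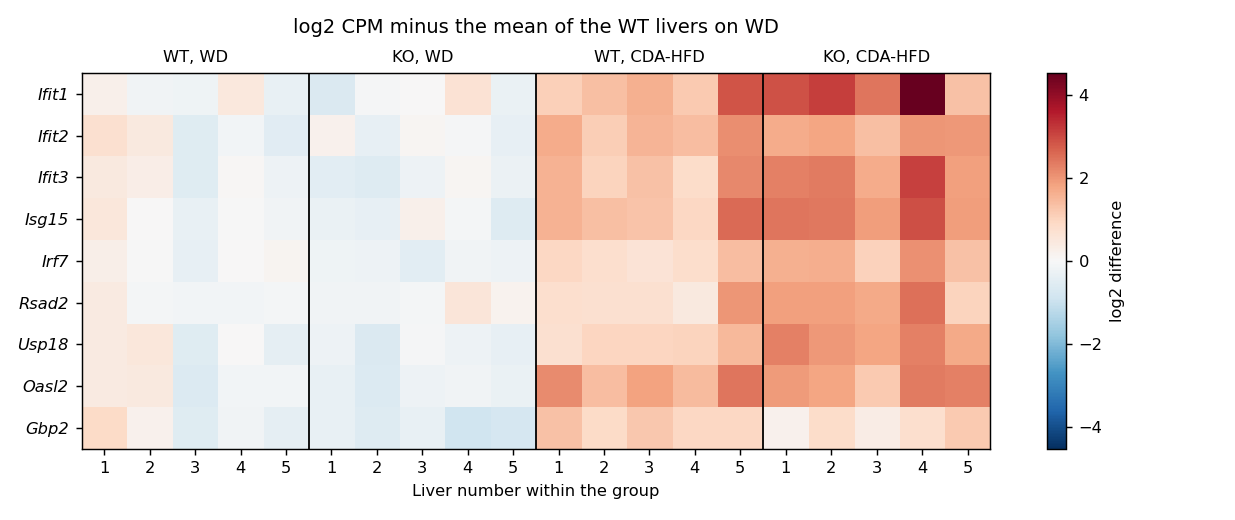
Log2 CPM of each gene in each of the 20 livers minus the mean of the WT livers on WD, with livers numbered within their group. Red marks higher and blue lower levels than that mean: the 10 CDA-HFD livers are red for all 9 genes, and KO liver 4 on CDA-HFD is the darkest for *Ifit1*, *Ifit3*, *Isg15*, *Irf7* and *Rsad2*.

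Whether the effect of KO differed between the diets was tested with all 20 livers in a fit with vector, diet and their interaction. *Usp18* was the 1 member to pass, with an effect of KO that was larger on CDA-HFD than on WD by 1.33 on the log2 scale (standard error 0.27, edgeR, adjusted p = 0.0282). In the same fit 0.331% of the 17804 genes passed upward and 0.225% downward. *Irf7* had a difference of 0.93 (edgeR, adjusted p = 0.0837), *Ifit3* of 1.1998 (edgeR, adjusted p = 0.157) and *Ifit1* of 1.46 (95% interval 0.11 to 2.82, edgeR, adjusted p = 0.286). The smallest were 0.30 for *Gbp2* and 0.35 for *Ifit2*. *Usp18* passed in 9 of the 20 fits that left out 1 liver, with adjusted p from 0.00522 to 0.0707. Without liver 5 of both CDA-HFD groups 6 members passed, without KO liver 5 alone 3, and without WT liver 5 alone 2. Calls over all genes went from 99 to 1588 without both and to 2138 without KO liver 5 alone.

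The wider pathway was read from 152 further genes, of which 127 were tested on CDA-HFD between KO and WT livers. There 22 (17.3%) passed upward and 9 (7.09%) downward, against the 8.19% and 7.29% of all genes, and the median log2 fold change was 0.15. On WD 0 of 125 passed, with a median log2 fold change of -0.21 against 0.01 over all genes tested. DESeq2 gave 3 calls there, all lower, where it called 162 over all genes, 62 higher and 100 lower. From WD to CDA-HFD 84 of 127 rose and 6 fell in WT livers, where 25.9% of all genes rose and 25.2% fell. In KO livers 87 of 126 rose and 2 fell, where 9.19% of all genes rose and 7.85% fell.

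Interferon genes themselves were almost unread. Of 21 listed ligands 16 to 19 had no count in each group, and only *Ifnk*, an interferon known from keratinocytes, was high enough to be tested. *Ifnb1* had at most 1 read in any liver, and *Ifng* had 0 to 1 reads in WT livers and 1 to 3 in KO livers on CDA-HFD. *Ifnk* was at 1.58 ± 0.298 CPM with GFP and 2.66 ± 0.384 CPM with Cre on CDA-HFD (SD, n = 5 each), a log2 difference of 0.75 (edgeR, adjusted p = 0.0254), and in WT livers it was lower on CDA-HFD than on WD (log2 fold change -0.86, edgeR, adjusted p = 0.00193).

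Among the 6 receptor genes 2 fell and 0 rose in KO livers on CDA-HFD, where 7.29% of all genes fell and 8.19% rose. *Ifngr2*, a chain of the interferon gamma receptor, went from 50.5 ± 5.44 CPM to 35.8 ± 4.18 CPM (SD, n = 5 each), a log2 difference of -0.50 (edgeR, adjusted p = 0.0153). *Il10rb*, a chain shared by the interferon lambda and interleukin 10 receptors, went from 33.0 ± 6.99 CPM to 17.9 ± 6.48 CPM (SD, n = 5 each), a log2 difference of -0.88 (edgeR, adjusted p = 0.0252), although 14.9% of its exonic bases are shared with *Gm21970*. *Ifnar1* (-0.13), *Ifnar2* (-0.15) and *Ifngr1* (-0.43) did not pass. In WT livers *Ifngr1* and *Ifngr2* rose 1.93-fold and 1.63-fold from WD to CDA-HFD, while *Ifnar1* had a fold of 1.10 and *Ifnar2* of 0.943, neither of which passed.

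Of the 6 kinase and transcription factor genes 2 rose and 1 fell in KO livers on CDA-HFD, where 8.19% of all genes rose and 7.29% fell. *Stat2* went from 90.9 ± 6.51 CPM to 145 ± 29.4 CPM (SD, n = 5 each), 1.59-fold (edgeR, adjusted p = 0.0171), and *Irf9* from 45.3 ± 4.84 CPM to 67.8 ± 11.3 CPM (SD, n = 5 each), 1.49-fold (edgeR, adjusted p = 0.0178). These encode components of the complex that binds the response element. *Jak2* fell by 0.36 on the log2 scale (edgeR, adjusted p = 0.0426), while *Jak1* (-0.04) and *Tyk2* (0.00486) did not pass.

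Of the 8 inhibitors of the pathway *Irf2* passed, with a log2 fold change of 0.31 (edgeR, adjusted p = 0.0392), and *Trim21* (0.38) and *Ptpn6* (-0.43) did not. Of the 17 nucleic acid sensors and their adaptors 3 fell and 0 rose, where 7.29% of all genes fell and 8.19% rose. *Tlr7*, the endosomal sensor of single-stranded RNA, fell by 0.95 on the log2 scale (edgeR, adjusted p = 0.0282). *Cgas*, the cytosolic DNA sensor, fell by 0.74 (edgeR, adjusted p = 0.0474) and *Ikbke*, a kinase that activates IRF factors, by 0.51 (edgeR, adjusted p = 0.0469). *Tlr7* went from 24.1 ± 5.55 CPM to 12.5 ± 4.48 CPM (SD, n = 5 each). These falls stood beside the lower macrophage sums given above, in which *Lyz2* and *Gpnmb* weighed most, and the part of these markers was not tested.

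Among 61 other interferon-induced genes tested, a list that also holds *Stat2* and *Irf9*, 11 rose and 2 fell in KO livers on CDA-HFD. Of all genes 8.19% rose and 7.29% fell there. *Ifi27*, a mitochondrial and nuclear protein gene, went from 73.5 ± 12.8 CPM to 138 ± 21.4 CPM (SD, n = 5 each), a log2 difference of 0.90 (edgeR, adjusted p = 0.00927), and it also passed the test of the difference between diets, at 1.205 (edgeR, adjusted p = 0.00785). *Oas1b* rose by 0.71 on the log2 scale (edgeR, adjusted p = 0.0150), whereas *Ifitm1*, whose product hinders virus entry, fell by 0.76 (edgeR, adjusted p = 0.0146). Among 36 genes typical of interferon gamma 9 rose and 1 fell, against the same shares of all genes. The guanylate-binding genes *Gbp10* and *Gbp11* rose by 1.96 and 2.39 on the log2 scale (edgeR, adjusted p = 0.00915 and 0.0167), in contrast to the sign of the *Gbp2* value, -0.38. *Gbp11* spread from 22.2 to 167 CPM among the KO livers and 9.46 to 14.2 CPM among the WT livers. The annotation classes *Gbp11* and *Oas1b* as polymorphic pseudogenes. Of the windows of *Gbp10*, 75.5% also occur in other genes, most of them in *Gm43302*, and 21.04% of those of *Gbp11* do, so counts of either are uncertain. *Serpina3g*, a protease inhibitor gene, fell by 0.66 (edgeR, adjusted p = 0.0154), and *Irf1*, which encodes an early factor of the gamma response, had a value of 0.36 (edgeR, adjusted p = 0.0989). The wider calls also moved with single livers, from 8 without WT liver 3 to 70 without KO liver 5.

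Without liver 5 of both CDA-HFD groups 52 genes of the wider lists passed upward and 20 downward, where 16.4% of the 17037 genes tested passed upward and 19.4% downward. Each of the 16 genes named above that passed with all livers also passed without these, in the same direction, with log2 differences of 2.52 for *Gbp11*, 0.98 for *Ifi27*, 0.82 for *Stat2* and -1.16 for *Il10rb* (adjusted p of at most 0.0278 in edgeR). *Ifngr1* (-0.71), *Ptpn6* (-0.58) and *Trim21* (0.41) passed only without them, and *Tyk2* turned to -0.03 without passing. The sensors went from 0 higher and 3 lower to 6 higher and 7 lower, the receptors from 2 to 4 lower and the other interferon-induced genes from 11 to 35 higher. Calls over all genes rose too, from 2664 to 6092, and the livers left out were chosen after seeing the data. Neither the calls kept nor those added in this fit are therefore further evidence.

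**Figure D4:**
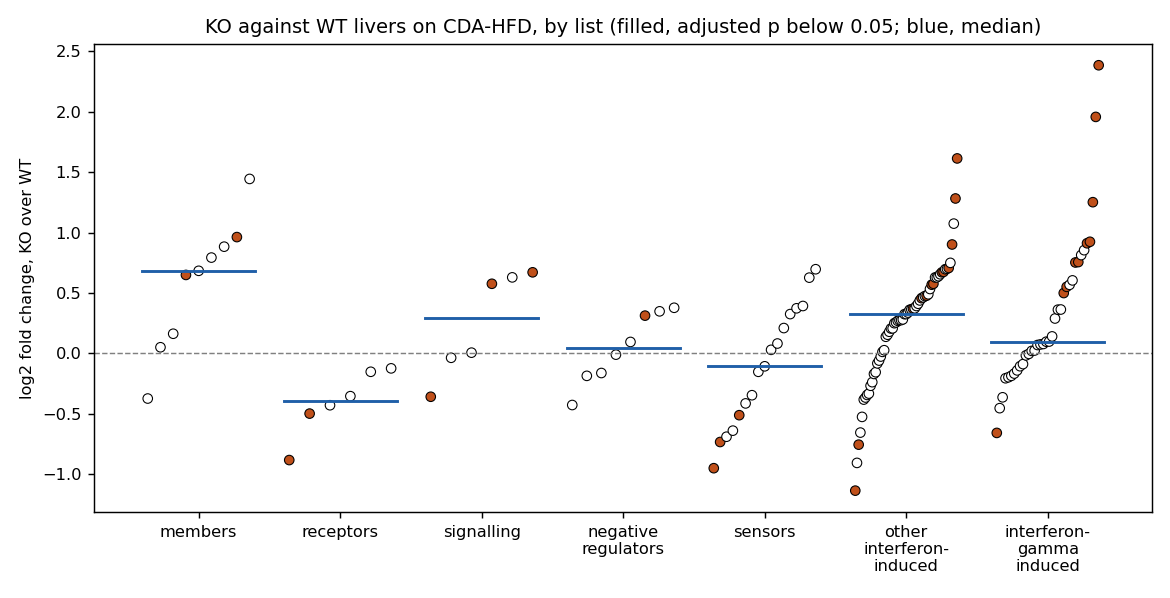
Log2 fold change of KO over WT livers on CDA-HFD for the tested genes of each list, each point a gene, ordered within its list, with the list median as a blue line. Filled points passed an adjusted p under 0.05: the calls are downward for receptors and sensors, and mostly upward for the other interferon-induced and interferon gamma lists.

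Within groups the members varied together from liver to liver. Over the 20 livers, with each gene taken as its deviation from the group mean of log2 CPM, Pearson's r of the 36 pairs ranged from -0.13 to 0.88 with a median of 0.68, as a description of livers that share the same libraries and depth. *Ifit3* and *Isg15* had the highest r (0.88), followed by *Ifit1* and *Rsad2* (0.87) and by *Ifit2* and *Oasl2* (0.84). *Gbp2* had the lowest mean r with the other members, 0.28, at -0.13 with *Ifit1* and -0.08 with *Rsad2* but 0.75 with *Ifit2*. Without liver 5 of both CDA-HFD groups the range over 18 livers was 0.20 to 0.94, with a median of 0.63.

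**Figure D5:**
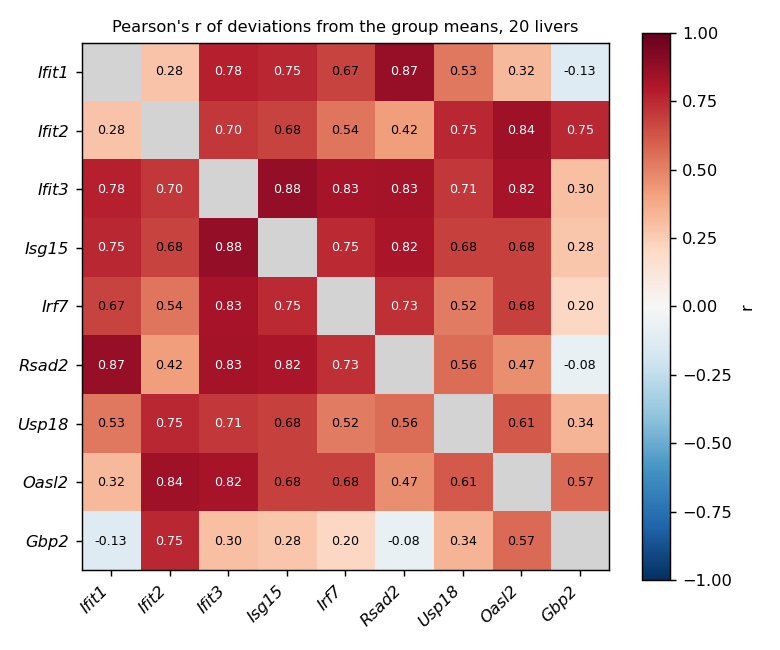
Pearson's r between the members' deviations from the group means of log2 CPM over 20 livers. *Ifit1* and *Rsad2* (0.87) and *Ifit2* and *Oasl2* (0.84) vary together, while *Gbp2* has values near 0 with *Ifit1* (-0.13) and *Rsad2* (-0.08).

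The genes outside the 9 whose liver-to-liver pattern was most like theirs, by the mean r with the 9 members over 20 livers, were *Slfn8* (0.72), *Cmpk2* (0.71), *Parp11* (0.71), *Chek1* (0.69) and *Trim34a* (0.69). The median over the 17795 genes compared was 0.00495 and over the 127 genes of the wider lists 0.31, and 13 of the 20 highest were on those lists.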

How the data were processed

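RNA of 20 mouse livers was sequenced, 5 in each of 4 groups set by the sample labels. The authors deposited raw read counts per gene symbol, whole numbers with no normalization. The submitters' processing notes name mm10, and the aligner and counter are not given in the sources used here. The labels name a directional library kit and the study's text another kit, so use of the strand is not known. The 5 entries of reads not assigned to a gene were left out of all fits: 20.7% to 28.8% of all reads overlapped no feature, 18.0% to 28.7% aligned to more than 1 place, 3.03% to 6.82% did not align, 0.800% to 1.03% were ambiguous and 0 were of low quality.

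From these counts, genes with low counts were removed with filterByExpr (all 9 members stayed in each fit), libraries were scaled by TMM, and groups were compared with the quasi-likelihood F test of edgeR 4.0.16 (limma 3.58.1, R 4.3.3), with Benjamini-Hochberg adjustment over all genes tested and a threshold of 0.05. Each comparison used its own 10 livers and the interaction all 20. CPM per liver was TMM-scaled over the 20 livers, log2 CPM had a prior count of 2, and each member was also compared by an exact permutation test over livers, two-sided (252 splits). P-values measure the spread between these livers. No 2 libraries of a group were copies (chi-square per degree of freedom of at least 6.24 over 40 pairs).

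The members and the lists were chosen with earlier results of these data known. Named outside the members were the central receptor, kinase and factor genes, the 3 genes with the smallest p on CDA-HFD in each list, the 5 genes most like the members and *Cideb*, and 1 gene of this rule is not reported here. Cell marker lists were compiled by hand. The tests were checked on simulated data. The alternatives tried were DESeq2 1.42.0, scaling by RLE or by library size alone, no count filter or a minimum of 10 counts per library, a replicate block, a joint fit of the 20 libraries and each library left out, and, added after seeing the data, both CDA-HFD livers numbered 5 left out and the longest coding transcript as the length per kb. Positions came from the GENCODE annotation of GRCm38 and promoters from RefSeq, read with Python 3.11.15, and figures were drawn with matplotlib 3.10.9.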

Additional observations from a re-analysis of the deposited data

Results flagged for a closer look

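Of the 36 groups of 5 livers (9 genes in 4 groups), 5 held a liver whose gap to its nearest neighbor took up more than 0.71 of the group's whole range. About 1 group in 20, or 1.8, would by chance if the groups were independent and normally distributed. The 9 genes were read in the same livers and varied together, so the 5 cannot be judged against 1.8. Liver 5 of the WT group on CDA-HFD was the highest for 3 genes. For *Ifit1* it was at 54.4 CPM, where the other 4 livers were at 15.9 to 23.3 CPM (gap 0.807 of the range). For *Isg15* it was at 22.7 CPM, against 7.25 to 11.3 CPM (gap 0.738), and for *Rsad2* at 47.5 CPM, against 16.0 to 19.95 CPM (gap 0.874). WT liver 1 on WD was the highest for *Rsad2*, at 15.4 CPM against 10.7 to 11.1 CPM (gap 0.926). KO liver 3 on WD was the lowest for *Irf7*, at 27.96 CPM against 32.6 to 34.3 CPM (gap 0.733). The effect of KO on *Usp18* differed between the diets, by 1.33 on the log2 scale in the interaction test. That call held in 9 of 20 fits with a liver left out, and in neither the fit with library size only nor that with a replicate block.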

How the results depend on the processing

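In either diet comparison all 9 members passed upward under the scalings, filters, tests, replicate block and left-out livers tried. Leaving out liver 5 of both CDA-HFD groups was run only for KO against WT livers on CDA-HFD and for the interaction. Between KO and WT livers on WD 0 members passed under any alternative, while the wider lists gave 3 calls with DESeq2 and 0 to 1 with a liver left out, and the log2 fold change ranged from -0.252 to 0.117 for *Ifit1*, from -0.321 to 0.0383 for *Ifit2* and from -0.0805 to 0.201 for *Rsad2* as livers were left out.

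On CDA-HFD the 2 member calls became 1 with library size only, 1 with no filter, 4 with DESeq2, 5 with all 20 libraries in one fit, 7 without liver 5 of both groups and 1 to 6 with a liver left out. The 31 wider calls became 12 with library size only, 72 without liver 5 of both groups and 8 to 70 with a liver left out. *Ifit2* turned to -0.0348 and *Oasl2* to -0.148 with library size only, and *Oasl2* ranged from -0.0589 to 0.222 with a liver left out. For the interaction, the 1 member call became 0 with library size only, 2 with DESeq2, 6 without liver 5 of both groups and 0 to 3 with a liver left out, and the 3 wider calls became 20, 40 and 3 to 39 with the last 3 of these. *Tyk2* turned to -0.0287 on CDA-HFD without liver 5 of both groups. The cause was not tested.

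The main fits did not pair livers by the numbers in the labels. Same-numbered livers had correlations over genes of -0.268 to 0.284 (WD), -0.367 to 0.347 (CDA-HFD), -0.145 to 0.334 (WT across diets) and -0.174 to 0.349 (KO across diets). Livers numbered 4 had positive values throughout (0.212 to 0.349) and those numbered 3 negative ones (-0.367 to -0.107). Differently numbered livers were not compared, so these values cannot decide whether the numbers pair livers. With a replicate block, the calls on CDA-HFD were 1 member and 19 wider genes, and the interaction gave 0 members and 0 wider genes.

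Over all genes, the 12 calls on WD became 162 with DESeq2, 38 with no filter, 26 with all 20 libraries, 2 with the block and 1 to 33 with a liver left out. The 2664 on CDA-HFD became 1709 with library size only, 4140 with DESeq2, 4170 with all 20 libraries, 6092 without liver 5 of both groups and 709 to 7201 with a liver left out. The 2792 of the diets in KO livers became 4476 with all 20 libraries and 1568 to 2881 with a liver left out, and the 99 of the interaction 44 with library size only, 427 with DESeq2, 52 with no filter, 8 with the block, 1588 without liver 5 of both groups and 35 to 2138 with a liver left out. Library size only moved the median log2 fold change of all genes to -0.19 on CDA-HFD, 0.42 between the diets in WT and 0.25 in KO livers and -0.15 in the interaction, and split the calls into 517 higher and 1192 lower on CDA-HFD (1409 and 1255 with TMM), 9120 and 1570 between the diets in WT livers (4335 and 4207), 3371 and 553 in KO livers (1506 and 1286) and 18 and 26 in the interaction (59 and 40). *Isg15* rested on few reads, and 5 livers a group leave wide intervals for *Ifit1*.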
